A study of Mus with 51 samples.

Results

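Lymph node CD4 T cells of 5C.C7 mice that had met a peptide for 1 h were sorted as CD69-hi or CD69-lo, and the poly-adenylated RNA of the CD69-hi cells was set against that of the CD69-lo cells. The libraries were taken by their group labels, which gave 12 of the 51 libraries of the series: 3 of MCC CD69-hi and 3 of MCC+GP CD69-hi, against 3 of MCC CD69-lo and 3 of MCC+GP CD69-lo. All 12 come from a B10.A strain that lacks Rag2 and carries the transgenic alpha and beta chains of the 5C.C7 T cell receptor (TCR), so that its T cells share 1 receptor, specific for a peptide of moth cytochrome c (MCC). The control fractions carry the same Rag2 loss and the same transgenes. GP is the second peptide of the mix, in a series whose title speaks of endogenous self-peptides, and the peptide mix was kept as a stratum. A further 3 libraries of cells kept without peptide for 1 h (NP) give the level without peptide at the same time. Age, sex, the cells that presented the peptides and the number of animals behind a library are not given in the sources used here, so each p-value speaks to the spread among the libraries at hand, part or all of which may be technical.

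CD4 T cells recognise peptide held by MHC class II molecules on presenting cells, and receptor binding starts the ERK, calcium and NF-kB branches of signalling. Immediate early transcription factors are transcribed first, and receptors, cytokines and the machinery of growth follow. CD69 is an early activation marker that binds the sphingosine phosphate receptor S1PR1 and removes it from the surface, which keeps activated cells in the lymph node. In resting T cells FOXO1 and KLF2 maintain the exit receptor encoded by S1pr1 and the interleukin-7 receptor encoded by Il7r.

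The CD69-hi libraries were shallower than the CD69-lo libraries. Total counts ran from 852129 to 3346959 in CD69-hi, 4404348 to 6285828 in CD69-lo and 4686382 to 6953485 in NP. Markers of CD4 T cells were present in every library: Trbc1, a TCR beta constant gene, stood at 7510 to 10791 CPM (counts scaled to normalized library size) in CD69-hi and 7874 to 10711 CPM in CD69-lo, and Trac, the alpha constant gene, at 2459 to 3570 CPM in CD69-hi and 2111 to 3083 CPM in CD69-lo. Other markers of CD4 T cells were lower in CD69-hi. Cd4 stood at 172 to 378 CPM in CD69-hi and 417 to 638 CPM in CD69-lo, and Cd3e at 139 to 259 CPM in CD69-hi and 284 to 396 CPM in CD69-lo. Cd28, Cd247, Trbc2 and Thy1 were also called lower, while Cd3d, Cd3g, Lck, Trac and Trbc1 did not pass (edgeR). Foxp3, which marks regulatory T cells, stood at 7.87, 8.16 and 4.95 CPM in MCC CD69-hi and 0, 0 and 0.843 CPM in MCC+GP CD69-hi. The CD69-lo libraries held 1.28 to 2.51 CPM of Foxp3, and its difference between mixes did not pass (adjusted p = 0.2455, edgeR). Cd8a, a marker of CD8 T cells, was at 0 to 9.32 CPM in CD69-hi and 1.54 to 5.02 CPM in CD69-lo. Cd8b1, a further marker of CD8 T cells, was lower in CD69-hi, at 2.13 to 11.7 CPM against 12.7 to 20.3 CPM in CD69-lo.

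The summed RNA of some other cell types was higher in CD69-hi by its median, and that of others was not. The summed level of 20 B-cell genes was 3364 to 6051 CPM in CD69-hi, 1133 to 4834 CPM in CD69-lo and 571 to 803 CPM in NP, on the scale of plain CPM without normalization factors. For 13 genes of MHC class II presentation the sums were 3026 to 6413 CPM in CD69-hi, 1068 to 4928 CPM in CD69-lo and 380 to 654 CPM in NP. Myeloid and dendritic genes summed to 291 to 685 CPM in CD69-hi, 105 to 302 CPM in CD69-lo and 72.8 to 113 CPM in NP. The sum of 8 regulatory T cell genes was 145 to 189 CPM in CD69-hi, 93.1 to 123 CPM in CD69-lo and 104 to 108 CPM in NP, without overlap between the fractions. Foxp3 itself overlapped once the mixes were pooled, lying above CD69-lo in MCC CD69-hi and below it in MCC+GP CD69-hi. Of the 8 genes 3 were called higher and 1, Ikzf4, lower (-1.58). Genes of NK and CD8 T cells summed to 37.1 to 77.4 CPM in CD69-hi and 66.5 to 88.0 CPM in CD69-lo. The sums for stroma, endothelium, erythroid cells and platelets were 114 to 867 CPM in CD69-hi and 247 to 551 CPM in CD69-lo. MCC CD69-lo replicate 3 carried the highest B-cell sum of the CD69-lo libraries, and the other 2 libraries of its group held 1426 and 1543 CPM. A Rag2-deficient mouse makes no B cells of its own. The source of this RNA was not tested, and its part in the results below was not tested beyond a fit with the B-cell sum as a covariate. More RNA of a cell type per cell and more cells of that type cannot be told apart in these bulk libraries.

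**Figure D1:**
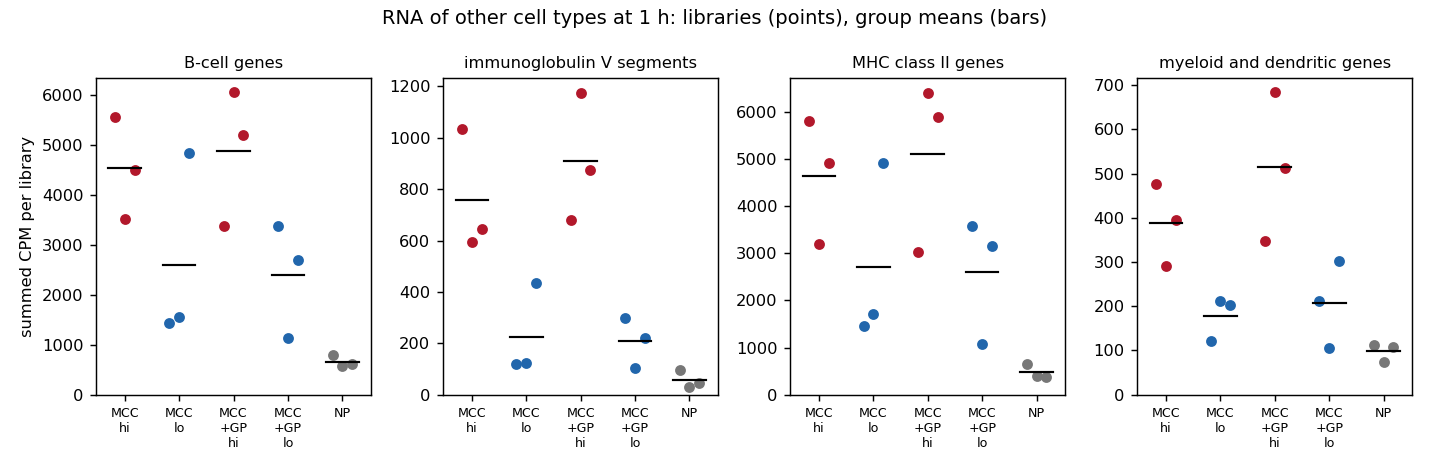
Summed CPM (vertical axis) of B-cell genes, immunoglobulin V segments, MHC class II genes and myeloid and dendritic genes in each 1 h library; points are libraries, bars are group means (n = 3 each), hi and lo stand for CD69-hi and CD69-lo. V segments ran from 593 to 1174 CPM in CD69-hi, above every CD69-lo library (105 to 434 CPM) and every NP library (31.6 to 95.3 CPM).

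Within 1 h the CD69-hi and CD69-lo fractions differed in much of the transcriptome. In the mean of both mixes 4804 of 17211 genes tested passed an adjusted p of 0.05 (27.9%), of which 1411 were higher in CD69-hi (8.2%) and 3393 lower (19.7%; edgeR quasi-likelihood F test, Benjamini-Hochberg adjustment). The balance of directions depended on the scaling of the libraries. With RLE size factors 2290 genes were higher and 1882 lower, with TMM factors computed among the 12 libraries 1750 and 2512, and with DESeq2 2522 and 2167. The median log2 fold change of all genes tested was -0.12 in the fit reported here, 0.08 with RLE factors and -0.02 with TMM factors among the 12 libraries. Among the 8306 genes with a mean above 10 CPM it was -0.21 in the fit reported here. Each log2 fold change below is therefore to be read against a median of -0.12, or of -0.21 for well-expressed genes. The total also depended on the fit: 2520 genes passed when the 12 libraries were fitted alone, 1728 when the B-cell sum was added to that fit as a covariate, and 2575 after all 12 libraries were thinned to the lowest total. Over the fits with 1 library left out it ran from 3868 (without MCC+GP CD69-hi replicate 3) to 4556 (without MCC CD69-lo replicate 3). The fit with the B-cell covariate differs from the one reported here in its libraries as well as in the covariate. The B-cell sum was itself higher in CD69-hi by its median, so the covariate can take up part of the difference between fractions. A call lost with it is therefore not shown to depend on B-cell RNA. The shares of 8.2% higher and 19.7% lower are the background for the gene lists described below. The share lower grew with level, to 31.1% of genes from 10 to 100 CPM and 39.9% of those above 100 CPM. For lists of well-expressed genes the background of lower calls is therefore above 19.7%. In both mixes at once, all CD69-hi libraries lay above all CD69-lo libraries for 345 genes (2%) and below them for 1755 genes (10.2%).

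The sort on CD69 was set beside its own transcript first. Cd69 (chromosome 6, 129267324 to 129275375, mm10) stood at 1181, 1935 and 1923 CPM in MCC CD69-hi and 2009, 1984 and 1132 CPM in MCC+GP CD69-hi, against 1595, 824 and 949 CPM in MCC CD69-lo and 734, 1373 and 1196 CPM in MCC+GP CD69-lo. NP libraries held 330, 209 and 121 CPM. The fractions overlapped, and every library of either fraction lay above every NP library. The log2 fold change of Cd69 was 0.61 ± 0.31 (SE, adjusted p = 0.151, edgeR), and it passed with DESeq2 (0.82, adjusted p = 0.0461) and in fits of the 12 libraries alone (0.77, adjusted p = 0.0300).

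Of 31 transcription factor genes of the immediate early response 11 were higher in CD69-hi, 1 was lower and 19 did not pass, with a median log2 fold change of 0.18, against 8.2% higher and 19.7% lower over all genes. Those that did not pass ran in both directions, with Jun at -1.12 (adjusted p = 0.0665) and Ier3 at 1.65 (adjusted p = 0.0678). Egr1, Egr2 and Egr3, zinc finger factors induced by ERK and calcium signals, did not pass, and their libraries overlapped between the fractions. Egr1 stood at 2059 to 5203 CPM in CD69-hi (median 4065), 2707 to 5507 CPM in CD69-lo (median 3701) and 63.6 to 105 CPM in NP. Its log2 fold change was -0.06 ± 0.51 (adjusted p = 0.973), so the spread between libraries left room for a difference of either sign. Egr2 stood at 597 to 1118 CPM in CD69-hi and 477 to 1244 CPM in CD69-lo (0.04 ± 0.31, adjusted p = 0.971). Egr3 ran from 607 to 2245 CPM in CD69-hi and from 592 to 1705 CPM in CD69-lo (0.41 ± 0.28, adjusted p = 0.301; edgeR), and its value over the alternatives ran from 0.26 to 1.23.

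The nuclear receptor genes of the Nr4a family, which report TCR signalling, lay between these patterns. Nr4a1, which encodes Nur77, stood at 6025 to 11133 CPM in CD69-hi and 3509 to 9899 CPM in CD69-lo, against 308 to 653 CPM in NP, and did not pass (0.47 ± 0.33, adjusted p = 0.304). It passed with the B-cell covariate (1.18, adjusted p = 0.0180). Nr4a2 rose by 0.94 ± 0.24 (adjusted p = 0.00265), with 1751 to 3663 CPM in CD69-hi against 809 to 2026 CPM in CD69-lo. Nr4a3 rose by 0.83 ± 0.20 (adjusted p = 0.00146), with 5373 to 9534 CPM in CD69-hi against 2907 to 6623 CPM in CD69-lo. For both genes the libraries of the fractions overlapped once the mixes were pooled.

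Fos, the AP-1 subunit, had lower values in CD69-hi. It stood at 135 to 196 CPM in CD69-hi (median 167), 197 to 377 CPM in CD69-lo (median 279) and 32.6 to 92.2 CPM in NP. Its change of -0.76 ± 0.42 did not pass (adjusted p = 0.189, edgeR), although no library of one fraction crossed the other, and it passed in the fit of the 12 libraries alone (-0.60, adjusted p = 0.00380).

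Myc and Irf4 separated the fractions without overlap. Myc, which drives growth and ribosome production (chromosome 15, 61985341 to 61990361), stood at 895, 1051 and 1180 CPM in MCC CD69-hi and 999, 1269 and 657 CPM in MCC+GP CD69-hi. The CD69-lo libraries held 476, 291 and 335 CPM with MCC and 291, 379 and 420 CPM with MCC+GP, and the NP libraries 26.2 to 31.2 CPM. CD69-lo cells thus held Myc above NP and below CD69-hi, whose log2 fold change was 1.47 ± 0.16 (adjusted p = 1.10e-09). Irf4, a factor whose dose follows TCR signal strength (chromosome 13, 30749233 to 30766981), stood at 1455, 1381 and 1440 CPM in MCC CD69-hi and 1236, 1540 and 1420 CPM in MCC+GP CD69-hi. In CD69-lo it stood at 736, 403 and 507 CPM with MCC and 417, 605 and 569 CPM with MCC+GP, and in NP at 67.5 to 125 CPM. Its log2 fold change was 1.39 ± 0.16 (adjusted p = 3.96e-09).

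Other members of this list that rose were Bhlhe40, a repressor that supports cytokine production (1.61 ± 0.26, adjusted p = 1.26e-05), and Klf10, induced by TGF-beta (1.40 ± 0.24, adjusted p = 1.90e-05). Bhlhe40 stood at 145 to 213 CPM in CD69-hi against 34.2 to 81.4 CPM in CD69-lo. Klf6 was the member that fell, by 1.53 ± 0.20, with 96.9 to 270 CPM in CD69-hi, 460 to 749 CPM in CD69-lo and 725 to 1098 CPM in NP. In 23 of the 31 genes every CD69-lo library lay above every NP library, which 6.65% of all genes tested did.

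**Figure D2:**
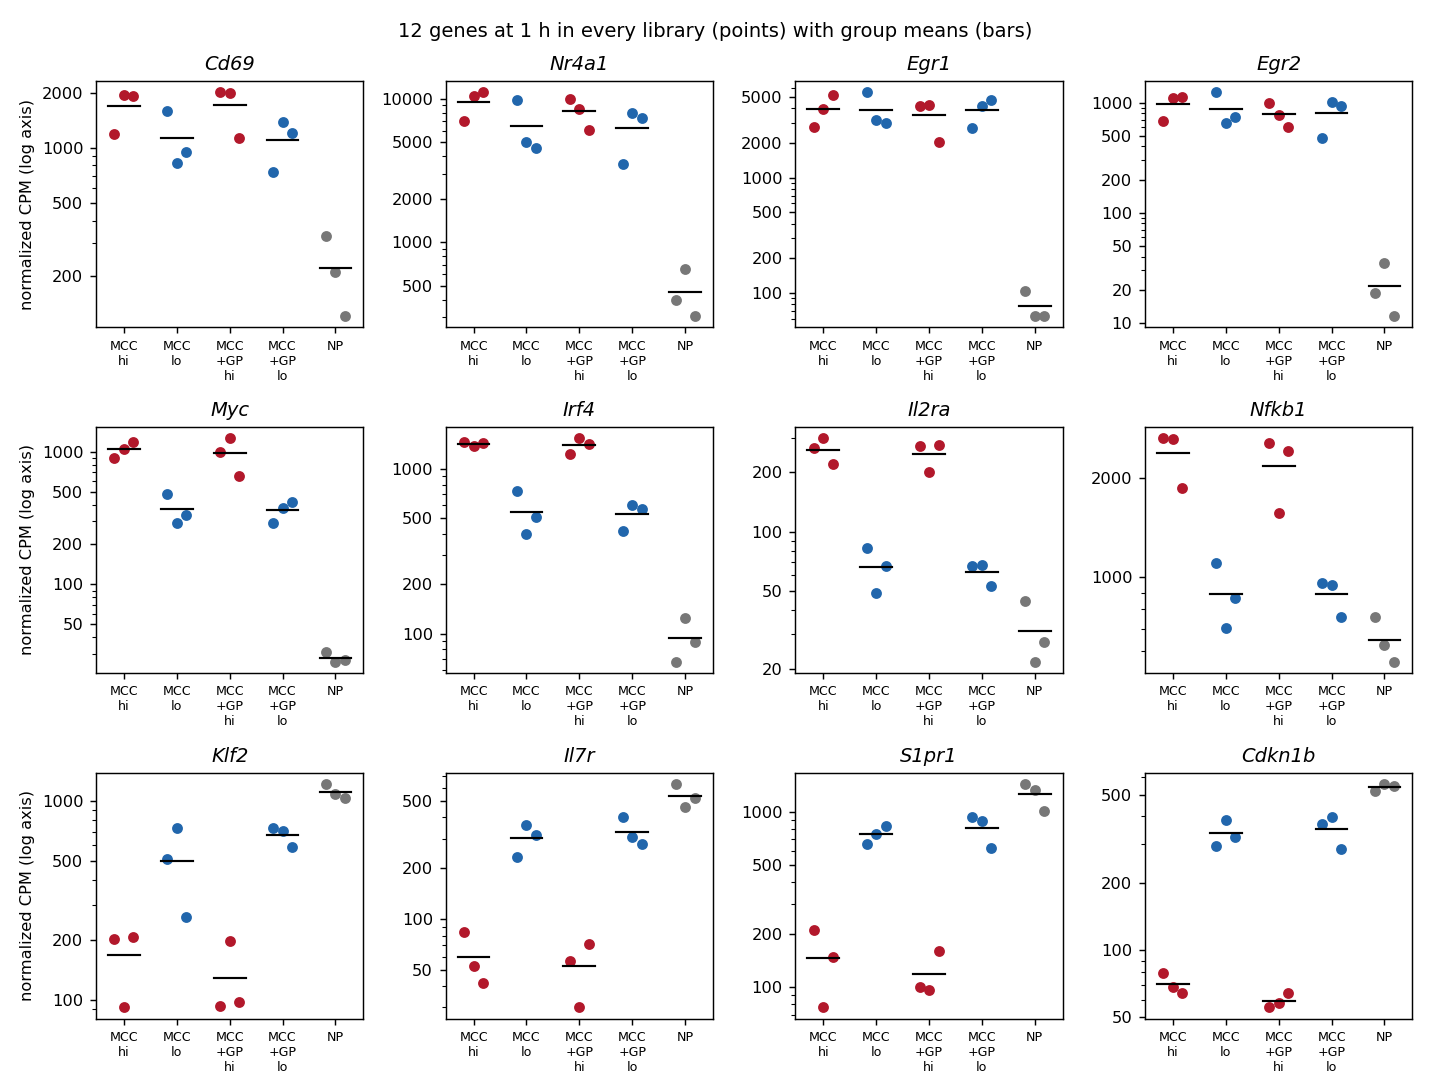
Normalized CPM (log axis) of 12 genes in each 1 h library; points are libraries, bars are group means (n = 3 each), hi and lo stand for CD69-hi and CD69-lo. Egr1 and Egr2 overlap between the fractions, Myc, Irf4, Il2ra and Nfkb1 lie higher in every CD69-hi library, and Klf2, Il7r, S1pr1 and Cdkn1b lie lower in every CD69-hi library.

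Of 18 genes that dampen ERK signalling 6 were higher and 3 lower, with a median of 0.41, against 8.2% higher and 19.7% lower over all genes. Spry1, a Sprouty inhibitor, stood at 51.3 to 95.9 CPM in CD69-hi and 17.3 to 27.5 CPM in CD69-lo (1.83 ± 0.28, adjusted p = 5.61e-06). The nuclear ERK phosphatase genes Dusp2 and Dusp4 rose by 0.95 and 1.09, and Dusp6, the cytoplasmic one, by 0.75. Dusp10, a phosphatase that acts on JNK and p38, fell by 2.40 ± 0.22 (adjusted p = 1.40e-10). It stood at 157, 72.3 and 103 CPM in MCC CD69-hi and 126, 103 and 169 CPM in MCC+GP CD69-hi, against 485 to 781 CPM in CD69-lo and 818 to 1111 CPM in NP.

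In the calcium and NFAT list 2 of 20 genes were higher and 9 lower, with a median of -0.28, against 8.2% higher and 19.7% lower over all genes. With RLE factors 4 were higher and 5 lower. Nfatc1, the NFAT gene that TCR signals induce, rose by 1.04 ± 0.12 (adjusted p = 5.93e-10), with 452 to 750 CPM in CD69-hi, 291 to 329 CPM in CD69-lo and 175 to 217 CPM in NP. Nfatc2, the NFAT gene of resting cells, fell by 0.99 ± 0.17 (adjusted p = 1.21e-05), and the call was lost with the B-cell covariate (adjusted p = 0.0618). The calcium channel gene Orai2 fell by 1.09 ± 0.11 (adjusted p = 6.17e-12), with 68.9 to 88.4 CPM in CD69-hi and 140 to 179 CPM in CD69-lo. Orai1, the main store-operated channel, rose by 0.39.

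The NF-kB pathway and its targets held 12 of 25 genes higher, 4 lower and a median of 0.32, against 8.2% higher and 19.7% lower over all genes. Nfkb1, which encodes the p105 precursor of p50, stood at 2647, 2626 and 1861 CPM in MCC CD69-hi and 2550, 1568 and 2426 CPM in MCC+GP CD69-hi. It stood at 1107, 701 and 867 CPM in MCC CD69-lo and 965, 947 and 761 CPM in MCC+GP CD69-lo, where the lowest library lay within the 556 to 759 CPM of NP. Its log2 fold change was 1.35 ± 0.16 (adjusted p = 4.26e-09). Rel, the c-Rel subunit, rose by 0.91, and Icam1, an adhesion molecule, by 1.26 ± 0.23 (adjusted p = 5.55e-05). The survival genes Bcl2a1d and Bcl2a1b rose by 2.31 ± 0.23 and 1.94 ± 0.33, but they are near-identical copies between which the counting may have split reads. The members that fell included the inhibitors Tnfaip3 (-1.15) and Tnip1 (-0.79) and the ubiquitin ligase gene Birc2 (-0.82).

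Of 27 tested cytokine and chemokine genes 10 were higher and 1 lower, against 8.2% higher and 19.7% lower over all genes. Of the 29 counted members of this list 3 were at 0 in every CD69-hi library and others had almost no counts, so no median is given for it. Il2, the T cell growth factor (chromosome 3, 37120713 to 37125954), was counted 55 times in the 6 CD69-hi libraries, 6 times in the 6 CD69-lo libraries and 4 times in NP. Scaled by library size, the ratio of CD69-hi over CD69-lo was 29.6 (exact 95% interval 12.7 to 84.0, which covers counting error only). The CD69-hi libraries held 2.76, 15.2 and 7.73 CPM with MCC and 2.13, 6.20 and 1.69 CPM with MCC+GP, and the CD69-lo libraries 0 to 0.822 CPM. Il2 passed (adjusted p = 0.00108) and did not pass when all 12 libraries were thinned to the lowest total (adjusted p = 0.142).

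Ccl3 and Ccl4, chemokine genes that lie side by side on chromosome 11, rose by 3.09 ± 0.51 (adjusted p = 1.81e-05) and 2.95 ± 0.33 (adjusted p = 7.72e-09). Ccl3 stood at 35.4, 8.16 and 48.6 CPM in MCC CD69-hi and 21.3, 78.6 and 34.6 CPM in MCC+GP CD69-hi, against 0.77 to 7.67 CPM in CD69-lo. Ccl4 ran from 6.99 to 97.2 CPM in CD69-hi and from 4.75 to 7.60 CPM in CD69-lo. Their annotated spans overlap, so reads may be shared, and both genes are also made by myeloid and B cells. Tnf, the inflammatory cytokine gene, stood at 174 to 531 CPM in CD69-hi, 79.0 to 299 CPM in CD69-lo and 11.6 to 17.8 CPM in NP. Its rise of 0.87 ± 0.30 (adjusted p = 0.0306) kept its direction in all 21 alternatives, with values of 0.68 to 1.23 and adjusted p of 0.00438 to 0.240, but did not pass in 8 of them. Those were the fit of the 12 libraries alone, the same with the B-cell covariate, the thinned libraries, and the fits without MCC CD69-hi replicate 3, MCC+GP CD69-hi replicate 2, MCC CD69-lo replicate 2, MCC CD69-lo replicate 3 or MCC+GP CD69-lo replicate 1. Il4 was called on 25 counts in CD69-hi and 11 in CD69-lo, and without MCC CD69-hi replicate 3 its value was -0.15. It also did not pass with the B-cell covariate (adjusted p = 0.289) or after thinning (adjusted p = 0.614). The lymphotoxin gene Lta rose by 1.64, Tnfsf14, which encodes LIGHT, by 2.11, and Cd40lg, the helper signal for B cells, by 0.89, while Ltb fell by 0.48.

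Among 22 activation receptors 8 were higher and 5 lower, with a median of 0.38, against 8.2% and 19.7% of all genes; the lower share is near that background. Il2ra, the high-affinity interleukin-2 receptor chain CD25 (chromosome 2, 11642792 to 11693194), stood at 265, 300 and 220 CPM in MCC CD69-hi and 273, 201 and 276 CPM in MCC+GP CD69-hi. The CD69-lo libraries held 82.7, 48.8 and 67.0 CPM with MCC and 66.9, 67.7 and 52.8 CPM with MCC+GP, and NP 21.8 to 44.4 CPM. Il2ra rose by 1.99 ± 0.25 (adjusted p = 1.52e-07), with no overlap. Sema7a, a semaphorin of activated lymphocytes, stood at 387 to 617 CPM in CD69-hi, 109 to 196 CPM in CD69-lo and 6.86 to 7.84 CPM in NP (1.75 ± 0.20, adjusted p = 2.20e-08). Cd83, an activation marker that B cells and dendritic cells also express, rose by 1.58 ± 0.31 (adjusted p = 0.000159). Tnfrsf9, the costimulatory receptor 4-1BB, rose by 2.29 ± 0.74 (adjusted p = 0.0186) on 66 counts in CD69-hi and 46 in CD69-lo; the adjusted p was 0.0516 without MCC CD69-hi replicate 2 and 0.0917 without MCC+GP CD69-hi replicate 1, and after thinning the value was 1.63 (adjusted p = 0.246). The costimulatory receptor gene Cd28 fell (-1.25), as did Cd226 (-1.24), Tnfrsf18 (-0.93), Icos (-0.88) and the adhesion receptor gene Cd2 (-0.37).

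Of 26 inhibitory receptors and signal dampeners 7 were higher and 7 lower, against 8.2% and 19.7% of all genes; with RLE factors 11 were higher and 7 lower. Pdcd1, the gene of the inhibitory receptor PD-1, stood at 43.4 to 91.9 CPM in CD69-hi, 10.3 to 24.9 CPM in CD69-lo and 0.922 to 1.40 CPM in NP. It rose by 2.08 ± 0.27 (adjusted p = 2.54e-07). Cd5, a dampening receptor that tracks TCR signal, rose by 0.62 ± 0.22 (adjusted p = 0.0339), with 147 to 196 CPM in CD69-hi and 73.3 to 163 CPM in CD69-lo. That call was lost without MCC CD69-lo replicate 2 (adjusted p = 0.0731), MCC CD69-lo replicate 3 (0.0934) or MCC+GP CD69-lo replicate 1 (0.0937). It was also lost (0.182) when each group kept only its libraries of passes 2 and 3, a pass being 1 run through the codes that end the library titles. Ubash3a, a phosphatase gene that restrains TCR signalling, fell by 1.82 ± 0.21 (adjusted p = 8.44e-09), with 14.5 to 61.8 CPM in CD69-hi and 108 to 184 CPM in CD69-lo.

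**Figure D3:**
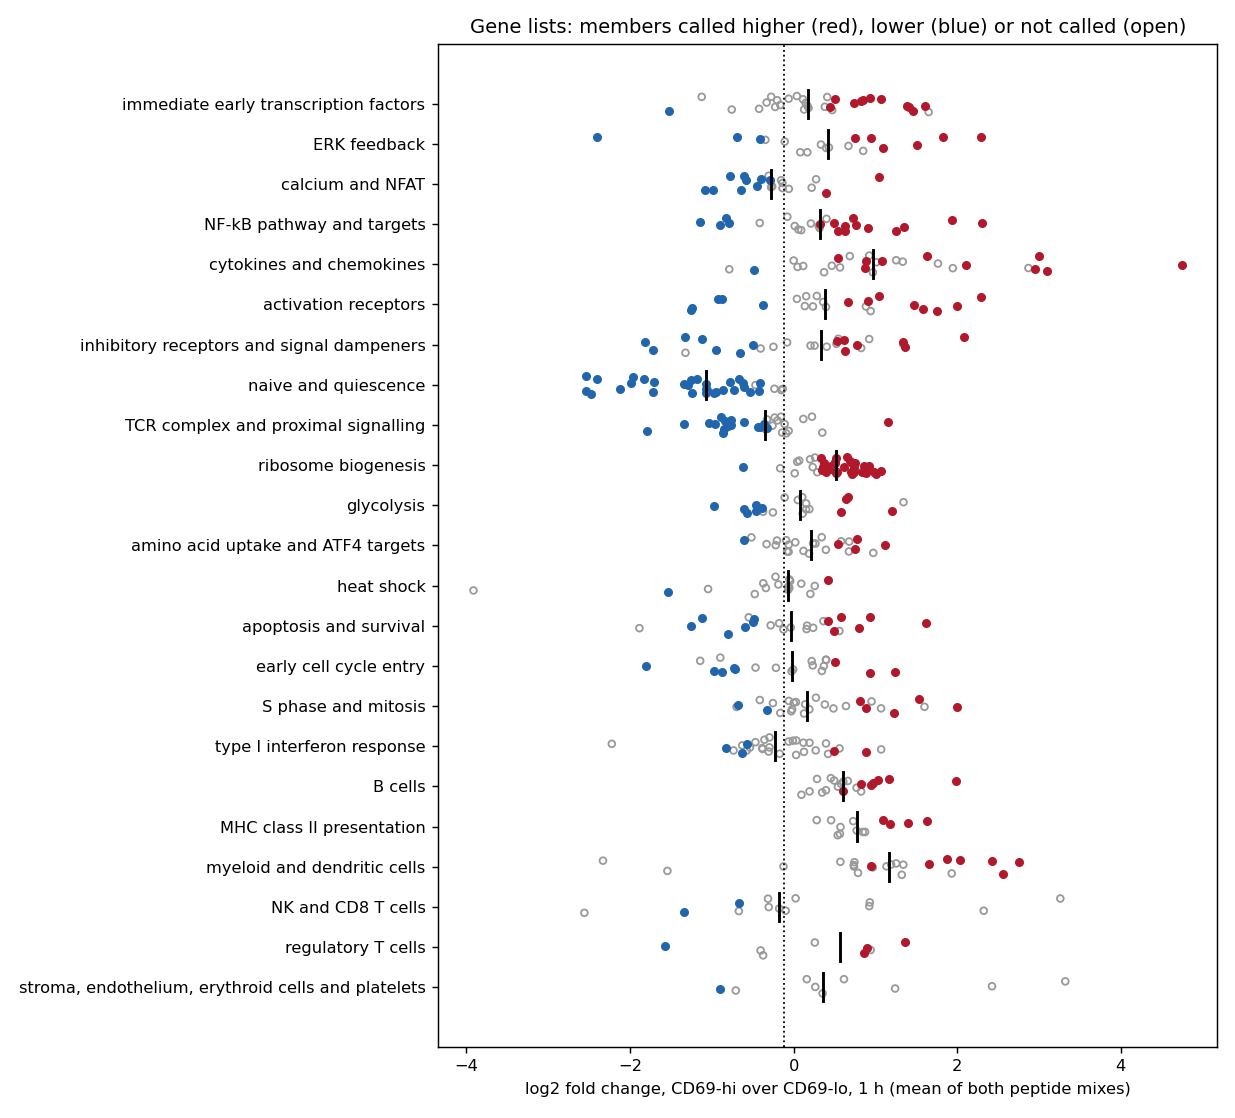
Log2 fold change, CD69-hi over CD69-lo at 1 h as the mean of both mixes (horizontal axis), of every tested member of 23 gene lists; filled points passed an adjusted p of 0.05, open points did not, solid bars are list medians and the dotted line is the median of all genes tested (-0.12). Naive and quiescence genes lie lowest with a median of -1.07, and ribosome biogenesis genes cluster around 0.51. The bars of the cytokine list and of the other lists with genes near 0 counts rest partly on members whose fold change is not measurable.

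Genes of the naive and quiescent state fell most uniformly. Of 34 such genes 30 were lower and 0 higher in CD69-hi, with a median of -1.07, against 19.7% of all genes tested called lower; at an unadjusted p under 0.05 and with DESeq2 the count higher was also 0. Between 23 and 30 were lower over the 21 alternatives. S1pr1, which encodes the exit receptor that CD69 antagonises (chromosome 3, 115710433 to 115715055), stood at 213, 76.9 and 149 CPM in MCC CD69-hi and 100, 97.2 and 160 CPM in MCC+GP CD69-hi. It stood at 658, 750 and 825 CPM in MCC CD69-lo and 932, 879 and 617 CPM in MCC+GP CD69-lo, and at 1008 to 1438 CPM in NP. The groups did not overlap, and the fall was 2.53 ± 0.15 (adjusted p = 3.96e-19). S1pr4, a related receptor gene, fell by 2.54 ± 0.17 (adjusted p = 2.76e-18), with 10.7 to 26.1 CPM in CD69-hi and 84.3 to 118 CPM in CD69-lo.

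Il7r, needed for naive cell survival (chromosome 15, 9506159 to 9529941), stood at 84.3, 52.4 and 42.1 CPM in MCC CD69-hi and 56.5, 29.98 and 71.6 CPM in MCC+GP CD69-hi. Its CD69-lo libraries held 234, 361 and 316 CPM with MCC and 401, 306 and 279 CPM with MCC+GP, and its NP libraries 463 to 633 CPM. The fall was 2.48 ± 0.25 (adjusted p = 8.83e-10). Klf2, a factor behind S1pr1, stood at 92.1 to 208 CPM in CD69-hi (median 148), 263 to 731 CPM in CD69-lo (median 646) and 1028 to 1217 CPM in NP. MCC CD69-lo replicate 3, the library richest in B-cell RNA of its fraction, held the lowest Klf2 level among CD69-lo libraries. Klf2 fell by 1.96 ± 0.22 (adjusted p = 1.24e-08). It passed in the 12 libraries alone (adjusted p = 0.00209, edgeR), and the call was lost when the B-cell covariate was added to that fit (-1.58, adjusted p = 0.0608).

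Cdkn1b, which encodes the cell cycle inhibitor p27, had the lowest adjusted p of the named genes. It stood at 78.7, 68.8 and 64.6 CPM in MCC CD69-hi and 55.4, 57.9 and 64.1 CPM in MCC+GP CD69-hi, against 294, 387 and 325 CPM in MCC CD69-lo and 368, 396 and 285 CPM in MCC+GP CD69-lo. NP libraries held 520 to 560 CPM. The fall was 2.40 ± 0.13 (adjusted p = 3.13e-21). Txnip, a brake on glucose uptake, fell by 2.12, Tsc22d3, the glucocorticoid-induced leucine zipper, by 1.98, and the naive T cell factors Lef1 and Tcf7 by 1.72 and 1.24. Foxp1, Id3, Dapl1 and Cxcr4 did not pass, with values from -0.47 to -0.13. In 16 of the 34 genes every CD69-lo library lay below every NP library, which 5.68% of all genes tested did.

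Of 30 transcripts of the TCR complex and its proximal signalling 16 were lower and 1 higher, with a median of -0.35. Over all genes tested 19.7% were lower and 8.2% higher, and among genes above 100 CPM 39.9% were lower. With RLE factors 12 of the 30 were lower and 2 higher, and with the B-cell covariate 7 and 5. Grap2, the adaptor Gads, stood at 108 to 192 CPM in CD69-hi, 493 to 611 CPM in CD69-lo and 729 to 851 CPM in NP, a fall of 1.79 ± 0.13 (adjusted p = 4.91e-16). The Tec kinase gene Txk fell by 1.34 ± 0.13 (adjusted p = 4.72e-12), and Prkcq, which encodes protein kinase C theta, by 1.04 ± 0.15 (adjusted p = 1.44e-07). Cd4 fell by 0.84 and Cd3e by 0.76, while Lck (-0.06), Lat (-0.15) and Zap70 (0.35) did not pass. Lcp2, the adaptor SLP-76, was the gene that rose, by 1.16 ± 0.13 (adjusted p = 6.26e-10). It stood at 861 to 1107 CPM in CD69-hi, 320 to 648 CPM in CD69-lo and 131 to 152 CPM in NP.

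Ribosome biogenesis genes rose together. Of 39 genes 30 were higher and 1 lower, with a median of 0.51, against 8.2% of all genes tested called higher, and 20 to 34 were higher over the alternatives. The changes were small and narrow in range. Gnl3, which encodes nucleostemin, stood at 248 to 346 CPM in CD69-hi, 141 to 164 CPM in CD69-lo and 94.9 to 106 CPM in NP (0.98 ± 0.14, adjusted p = 9.83e-08). Nop16, a nucleolar protein of the large subunit, rose by 1.07 ± 0.18 (adjusted p = 4.02e-06), and Nhp2, a box H/ACA particle subunit, by 0.92 ± 0.16 (adjusted p = 8.18e-06). Polr1b, a subunit of RNA polymerase I, rose by 1.00 ± 0.20 (adjusted p = 0.000140), and not with the B-cell covariate (0.46, adjusted p = 0.164). The nucleolar proteins Ncl and Npm1 rose by 0.51 and 0.37, and Wdr12 fell by 0.61.

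Glycolysis held 4 higher and 6 lower of 20 genes, against 8.2% and 19.7% of all genes, and 7 higher and 1 lower with RLE factors, so its direction followed the scaling. Hk2, the inducible hexokinase, rose by 1.21 ± 0.34 (adjusted p = 0.00686), with 11.7 to 38.8 CPM in CD69-hi and 3.76 to 18.8 CPM in CD69-lo, and not with the B-cell covariate (0.28, adjusted p = 0.691) or without MCC+GP CD69-hi replicate 3 (adjusted p = 0.0553). Among 24 genes of amino acid uptake and the ATF4 response 4 were higher and 1 lower, against the same 8.2% and 19.7% of all genes. The uptake genes Slc7a1, for cationic amino acids, and Slc38a1, for glutamine, rose by 0.77 ± 0.13 (adjusted p = 5.88e-06) and 0.75 ± 0.10 (adjusted p = 8.92e-08). Slc38a2, a transporter of the same family as Slc38a1, fell by 0.61 ± 0.13 (adjusted p = 0.000150), and not with the B-cell covariate (-0.18, adjusted p = 0.342). In the heat shock list 1 of 18 genes was higher and 1 lower, which is below the shares of all genes in both directions.

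Apoptosis and survival genes were higher in 6 and lower in 6 of 23 cases, or 7 and 4 with RLE factors, and the lower share is close to the 19.7% of all genes (8.2% were higher). Bcl2l1, which encodes the survival protein Bcl-xL, stood at 22.4 to 55.6 CPM in CD69-hi and 7.63 to 14.7 CPM in CD69-lo (1.62 ± 0.21, adjusted p = 5.33e-08). The pro-apoptotic gene Bbc3, which encodes PUMA, fell by 1.11 ± 0.26 (adjusted p = 0.00115), and not with the B-cell covariate (-0.34, adjusted p = 0.562).

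Genes of early cell cycle entry were higher in 3 and lower in 5 of 20 cases, or 7 and 5 with RLE factors, against 8.2% higher and 19.7% lower over all genes. Cdkn1a, the p53-inducible inhibitor p21, rose by 1.23 ± 0.24 (adjusted p = 0.000156) while the cyclin gene Ccnd3 fell by 0.88. In the S phase and mitosis list 5 of 26 genes were higher and 2 lower, against the same shares of all genes. Tk1, thymidine kinase, stood at 43.7 to 90.9 CPM in CD69-hi, 12.1 to 29.95 CPM in CD69-lo and 5.40 to 8.57 CPM in NP (1.53 ± 0.22, adjusted p = 2.05e-07). Mki67, a marker of cycling cells, rose by 1.23 ± 0.36 (adjusted p = 0.0101), and did not pass with the B-cell covariate (0.84, adjusted p = 0.169) without MCC+GP CD69-hi replicate 2 (1.04, adjusted p = 0.0598) or after thinning (1.08, adjusted p = 0.0990). Of 30 type I interferon response genes 2 were higher and 3 lower, or 4 and 2 with RLE factors. Both counts of the fit reported here are below the 8.2% higher and 19.7% lower of all genes. Isg15, a ubiquitin-like protein, rose by 0.89 ± 0.28 (adjusted p = 0.0142), and did not pass with passes 2 and 3 alone (adjusted p = 0.106).

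The genes with the largest changes were named by a rule that asks for an adjusted p under 0.05, at least 5 CPM in the higher fraction and no overlap within each mix, which was met by 310 higher genes (1.8%) and 1580 lower genes (9.18%). Jchain, which joins secreted immunoglobulin and marks plasma cells, had the largest rise under this rule. It stood at 165, 61.8 and 97.7 CPM in MCC CD69-hi and 76.7, 112 and 131 CPM in MCC+GP CD69-hi, against 0.346 to 7.60 CPM in CD69-lo and 0.400 to 8.30 CPM in NP (5.02 ± 0.56, adjusted p = 1.50e-08, edgeR). Bcat1, the cytosolic branched-chain aminotransferase, stood at 5.26 to 16.3 CPM in CD69-hi and 0.418 to 1.64 CPM in CD69-lo (2.99 ± 0.39, adjusted p = 5.09e-08). Siglec1, a macrophage receptor, was called on 46 counts in CD69-hi and 24 in CD69-lo, and not after thinning (adjusted p = 0.163).

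On the lower side, Fam101b (also Rflnb, a filamin regulator) stood at 34.3, 21.0 and 19.2 CPM in MCC CD69-hi and 17.0, 15.5 and 27.8 CPM in MCC+GP CD69-hi, against 121 to 174 CPM in CD69-lo and 243 to 293 CPM in NP (-2.72 ± 0.19, adjusted p = 3.29e-16). Zscan10, a zinc finger factor, ran from 0.618 to 8.52 CPM in CD69-hi and from 17.7 to 31.7 CPM in CD69-lo (-3.12 ± 0.35, adjusted p = 9.90e-10). Plat, which encodes tissue plasminogen activator, was counted 16 times in CD69-hi and 398 times in the deeper CD69-lo libraries. Scaled for depth, its log2 fold change was -3.17 (adjusted p = 3.45e-08, edgeR), and -4.17 to -2.70 over the alternatives. Pex26, a peroxisome import factor, was counted 6 times in CD69-hi and 186 times in CD69-lo. Its scaled log2 fold change was -5.23 (adjusted p = 2.50e-07, edgeR), and -7.24 to -3.66 over the alternatives. Of the 6 CD69-hi libraries 4 held 852129 to 1105292 counts, so that a gene at 1 CPM yields about a single read in them.

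The lists of other cells were also compared between fractions. Of 20 B-cell genes 7 were higher and 0 lower, with a median of 0.61. At an unadjusted p under 0.05 the count lower was also 0, as it was with DESeq2. With the B-cell covariate 2 were higher and 2 lower, but that covariate is the sum of these same 20 genes. A fit on their own sum takes up the change they share, so this last count says nothing further about them. Igkc, the kappa light chain constant gene, stood at 397 to 869 CPM in CD69-hi, 77.0 to 284 CPM in CD69-lo and 25.9 to 60.1 CPM in NP (1.99 ± 0.39, adjusted p = 0.000202). The B-cell receptor gene Cd79a did not pass, with 174 to 276 CPM in CD69-hi and 83.5 to 355 CPM in CD69-lo. In 19 of these 20 genes every CD69-lo library lay above every NP library, against 6.65% of all genes tested. In the MHC class II presentation list 4 of 13 genes were higher, led by Cd40 (1.63 ± 0.35, adjusted p = 0.000589), and of 22 tested myeloid and dendritic genes 7 were higher. Of 13 tested genes of NK and CD8 T cells 2 were lower, of 9 tested genes of stroma, endothelium, erythroid cells and platelets 1 was lower, and of 8 tested regulatory T cell genes 3 were higher and 1 lower. Over all genes tested 8.2% were higher and 19.7% lower, so the counts lower in these lists are not above that background.

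The 2 peptide mixes, which share no library, were tested apart. With MCC+GP 3221 genes passed (18.7%), 929 higher (5.4%) and 2292 lower (13.3%) in CD69-hi, and with MCC 2155 (12.5%), 595 higher (3.46%) and 1560 lower (9.06%). The count with MCC+GP was 1952 without MCC+GP CD69-lo replicate 2 and 2101 without MCC+GP CD69-lo replicate 3, and the count with MCC was 1354 without MCC CD69-lo replicate 2. Of the genes called in either mix 1292 were called in both, which is 40.1% of the MCC+GP calls and 60.0% of the MCC calls, and 1288 of these had the same direction. Myc rose by 1.42 with MCC+GP (adjusted p = 1.03e-05) and by 1.51 with MCC (adjusted p = 5.31e-06), and Il2ra by 2.00 with MCC+GP and 1.98 with MCC (adjusted p = 0.000112 and 0.000153). S1pr1 fell by 2.75 with MCC+GP and by 2.31 with MCC, and Klf2 by 2.38 with MCC+GP and by 1.54 with MCC. The difference of Klf2 between mixes was -0.84 ± 0.43 (adjusted p = 0.509), so the mixes were not shown to differ in it. Of 34 naive and quiescence genes 30 were lower with MCC+GP and 21 with MCC, and no member of that list is among the genes called for a difference between mixes.

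**Figure D4:**
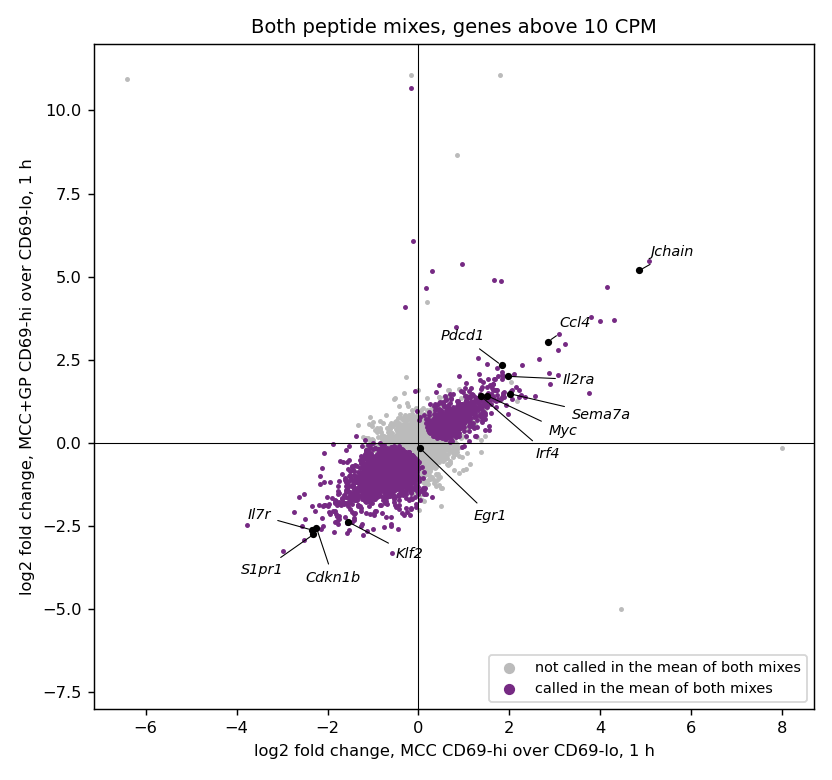
Log2 fold change, CD69-hi over CD69-lo at 1 h, with MCC (horizontal axis) and with MCC+GP (vertical axis) for 8306 genes with a mean above 10 CPM; each point is a gene, coloured where it passed in the mean of both mixes. Named genes such as Jchain, Ccl4 and Il2ra lie high in both mixes and S1pr1, Il7r and Cdkn1b low in both (Pearson r = 0.662 and Spearman rho = 0.713 across genes, which are not independent replicates).

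The difference between mixes was itself tested, as MCC+GP minus MCC. It was called for 7 genes (0.0407%), 1 higher (0.00581%) and 6 lower (0.0349%), while 1786 genes had an unadjusted p under 0.05 (edgeR). The number was 3 without MCC CD69-lo replicate 3, 3 without MCC+GP CD69-lo replicate 3, 4 without MCC+GP CD69-lo replicate 2, 16 without MCC+GP CD69-hi replicate 1 and 25 without MCC+GP CD69-hi replicate 3. DESeq2 called 40 genes, and edgeR called 0 when the 12 libraries were fitted alone, where 478 genes had an unadjusted p under 0.05. Passes of the title codes were not balanced within a mix, so an effect of pass cannot be told apart from part of this difference. With a block by pass in the 12 libraries alone, 0 genes were called.

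Elmo2, a cofactor in the activation of Rac, had the lowest adjusted p for a difference between mixes. It stood at 6.39, 7.24 and 6.74 CPM in MCC+GP CD69-hi and 33.3, 47.4 and 41.7 CPM in MCC+GP CD69-lo, against 31.5, 36.1 and 20.7 CPM in MCC CD69-hi and 41.1, 39.9 and 33.9 CPM in MCC CD69-lo. The level was thus low in the 3 MCC+GP CD69-hi libraries, with a difference of -2.13 ± 0.33 (adjusted p = 0.000385). Pgm2 followed the same order, at 0 to 1.07 CPM in MCC+GP CD69-hi and 9.06 to 14.8 CPM in MCC CD69-hi, against 10.4 to 14.9 CPM over the CD69-lo libraries (-4.07 ± 0.73, adjusted p = 0.00630). Those 3 MCC+GP CD69-hi libraries held 949796, 930161 and 1105292 counts.

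The same comparison at 6 h, over 6 CD69-hi and 5 CD69-lo libraries, was used to ask which differences were particular to 1 h. The difference of differences, 1 h minus 6 h, passed for 7495 genes (43.5%), 3444 higher (20%) and 4051 lower (23.5%). At 6 h itself 9702 genes passed (56.4%), 4282 higher (24.9%) and 5420 lower (31.5%) in CD69-hi. S1pr1, Il7r and Klf2 changed less at 1 h than at 6 h, with differences of 3.24 ± 0.22, 2.44 ± 0.36 and 2.75 ± 0.32 (adjusted p = 7.70e-18, 6.02e-07 and 5.22e-09). At 6 h S1pr1 stood at 7.10 to 16.2 CPM in CD69-hi and 433 to 653 CPM in CD69-lo. Il2ra, Irf4, Myc and Cd5 separated the fractions more at 6 h, with 1 h minus 6 h differences of -1.38 ± 0.35, -0.95 ± 0.23, -0.69 ± 0.23 and -2.03 ± 0.32, all called.

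Egr3 and Fos had differences of the opposite sign. Of the 31 immediate early genes 9 had a higher and 5 a lower difference at 1 h, against 20% and 23.5% of all genes. Egr3 fell by 2.21 ± 0.31 at 6 h (60.2 to 110 CPM in CD69-hi and 219 to 570 CPM in CD69-lo), a 1 h minus 6 h difference of 2.62 ± 0.42 (adjusted p = 3.55e-06). Fos fell by 3.34 ± 0.46 at 6 h, which differed from 1 h by 2.59 ± 0.61 (adjusted p = 0.000773). Egr1 fell by 1.76 ± 0.54 at 6 h, but the difference from 1 h did not pass (1.70 ± 0.74, adjusted p = 0.0619). All 39 tested ribosome biogenesis genes had a lower difference at 1 h than at 6 h, with a median of -2.05, as did 23 of 24 genes of amino acid uptake and the ATF4 response, with a median of -2.34. Of 30 type I interferon response genes 28 had a higher difference at 1 h, with a median of 2.78. At 1 h itself the median log2 fold change of this list was -0.23, with 2 higher and 3 lower. The higher difference is thus not a rise in CD69-hi at 1 h. Cd69, Nr4a1, Nr4a2, Nr4a3, Egr2, Tnf and Il2 did not pass this test. At 24 h the fractions were compared with MCC alone, and 10615 genes passed (61.7%), 5012 higher (29.1%) and 5603 lower (32.6%) in CD69-hi. The difference of differences, 1 h minus 24 h with MCC, passed for 8010 genes (46.5%), 3519 higher (20.4%) and 4491 lower (26.1%). S1pr1 fell by 6.18 ± 0.26 and Klf2 by 6.06 ± 0.39 at 24 h with MCC, and their changes at 1 h were 3.88 ± 0.31 and 4.52 ± 0.47 less negative (adjusted p = 4.83e-15 and 7.22e-10). Egr3 differed by 3.12 ± 0.61 (adjusted p = 7.66e-05) and Il2ra by -1.21 ± 0.49 (adjusted p = 0.0422) between 1 h and 24 h.

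**Figure D5:**
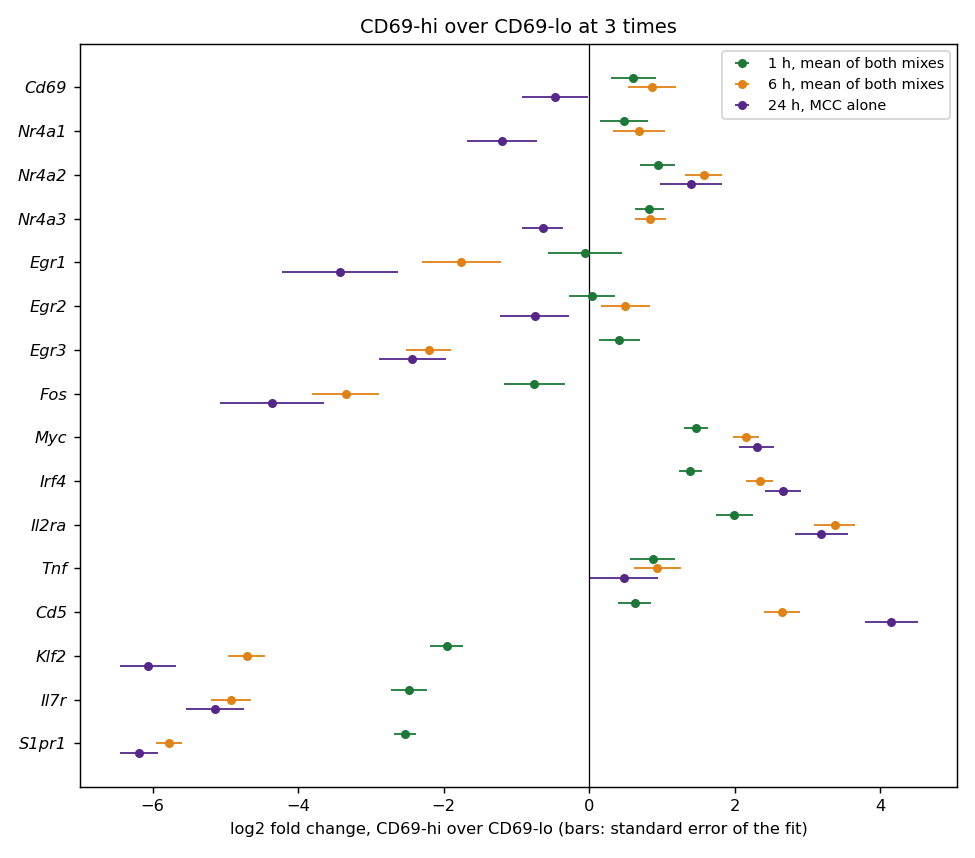
Log2 fold change, CD69-hi over CD69-lo (horizontal axis), of 16 genes at 1 h and 6 h as the mean of both mixes and at 24 h with MCC alone; points are fitted values and bars their standard error, and Il2 is left out for its few counts. S1pr1 lies at -2.53, -5.77 and -6.18 at 1, 6 and 24 h, and Egr3 at 0.41, -2.21 and -2.43.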

How the data were processed

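Poly-adenylated RNA was sequenced in 51 libraries of sorted CD4 T cells, 12 of which are compared here with 3 NP libraries beside them. Per the submitters' processing notes, the tools used were bcl2fastq 2.20 for demultiplexing, STAR 2.6.1c for alignment (genome build mm10) and HTSeq 0.9.1 for gene counts; annotation and strand setting are not given in the sources used here, so reads of overlapping and antisense genes cannot be told apart. The deposited table holds raw counts for 34923 features, 38 of them with a repeated symbol; a second deposited table, headed as TPM, was not used.

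All 51 libraries entered 1 edgeR model (edgeR 4.0.16 in R 4.3.3) with a coefficient for each group, TMM factors, and the 17211 genes that filterByExpr kept. Each difference got a two-sided quasi-likelihood F test with robust dispersions, and p-values were adjusted over the 17211 genes (Benjamini-Hochberg, threshold 0.05). A standard error is the absolute log2 fold change divided by the square root of F. CPM were computed here from the counts. The test was checked on simulated counts. Replicates differed by more than counting error (chi-square per degree of freedom 5.87 to 21.65), so none is a copy of another. Symbols of 130 of the 137 named genes matched RefSeq's GRCm38.p6 table, which gave their coordinates.

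Gene lists and the compared groups were chosen with earlier results of these data known. Genes were named by rule: a panel, up to 12 rising and 12 falling genes with at least 5 CPM and no overlap within each mix, up to 4 members per list and up to 6 per direction for the differences between mixes and times. Only part of them is described, and list members named beyond the rule were chosen after their values were seen. Alternatives were RLE size factors, no filter, DESeq2 1.42.0, the 12 libraries alone, the same with a block by pass through the title codes or with B-cell RNA as covariate, thinning to the lowest total, and each library left out in turn. TMM factors among the 12 libraries and the use of passes 2 and 3 alone were added after seeing the data. Some genes are not reported here.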

Additional observations from a re-analysis of the deposited data

Results flagged for a closer look

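The change between CD69-hi and CD69-lo at 1 h differed between the peptide mixes, by the test of the difference itself (MCC+GP minus MCC, edgeR), for 7 genes. The log2 differences were -2.13 for Elmo2, -4.07 for Pgm2, -4.16 for P3h1, -1.94 for Thap7, -1.86 for Fbxo46, -1.70 for Sphk2 and 9.58 for Fbxo48. In the 6 genes with a negative difference the MCC+GP CD69-hi libraries held the lowest values. Sphk2, a sphingosine kinase gene, stood at 8.52, 9.31 and 15.2 CPM in MCC+GP CD69-hi and 32.1, 32.4 and 33.2 CPM in MCC+GP CD69-lo, against 24.4, 45.5 and 40.5 CPM in MCC CD69-hi and 34.2, 29.0 and 32.1 CPM in MCC CD69-lo. Thap7 held 5.17 to 10.7 CPM in MCC+GP CD69-hi, against 20.5 to 32.6 CPM in MCC CD69-hi and 20.3 to 23.5 CPM over CD69-lo. Fbxo48 was at 0, 24.8 and 9.27 CPM in MCC+GP CD69-hi and at 0 in the 3 MCC CD69-hi libraries, so that its fitted value is no measure of size.

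The same change differed between 1 h and 6 h for 7495 genes and, with MCC, between 1 h and 24 h for 8010 genes. Of the panel, the 1 h minus 6 h difference was negative for Myc (-0.69), Irf4 (-0.95), Il2ra (-1.38) and Cd5 (-2.03). It was positive for Egr3 (2.62), Fos (2.59), Klf2 (2.75), Il7r (2.44) and S1pr1 (3.24). Groups of 3 libraries were not examined for single outlying libraries beyond leaving out each of the 12 libraries of 1 h in turn. Libraries of 6 h and 24 h were not left out.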

How the results depend on the processing

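Among the named genes 2594 values under the alternatives kept direction and call, 10 gained a call, 233 lost it and 4 reversed, and 61 of 112 called genes kept their call under all 21 alternatives. The reversed values were 0.21 for Prf1 with the B-cell covariate, -0.32 for Ccl17 without passes 1 and 4, and values of Il4 (-0.15 to 4.30) and Ccl17 (-0.00927 to 3.50) over the fits with 1 library left out. Genes higher and lower in CD69-hi numbered 2290 and 1882 with RLE size factors and 2522 and 2167 with DESeq2. All 1411 genes reported as higher were among the 2290, and all 1882 were among the 3393 reported as lower. The 12 libraries fitted alone gave 2520 calls, 1387 of them lower, with 1224 for MCC+GP, 850 for MCC and 0 for the difference between mixes. With the B-cell covariate there were 1728 calls, 823 higher and 905 lower, with 1004 for MCC+GP, 884 for MCC and 0 for the difference (553 at an unadjusted p under 0.05, edgeR); 482 of the genes reported as higher and 872 of those reported as lower were still called. Thinning gave 2575 calls, 1275 of them lower, with 1426 for MCC+GP, 1199 for MCC and 77 for the difference, and 3 genes were called in the opposite direction. Without passes 1 and 4, 889 genes were higher, with 2071 calls for MCC+GP, 1399 for MCC and 16 for the difference. The difference between mixes was called for 28 genes with no filter and 40 with DESeq2. Over the fits with 1 library left out the calls ran from 1952 to 3222 for MCC+GP, from 1354 to 2111 for MCC and from 3 to 25 for the difference. The cause was not tested. Only 12068 genes were tested where the 12 libraries were fitted alone, against 17211. The shallow CD69-hi libraries limit what can be seen in genes near 1 CPM.

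The codes that end the titles were read as passes 1 to 4 and used as a block, in the 12 libraries alone. Deviations from the group means correlated at 0.068 to 0.664 in 14 pairs of libraries of the same pass (median 0.268) and at -0.594 to 0.617 in 40 pairs of different passes (median -0.124). All 14 same-pass pairs were thus positive, so libraries of a pass may share an effect. The MCC CD69-hi and MCC+GP CD69-lo libraries were of passes 1, 2 and 3. Those of MCC CD69-lo and MCC+GP CD69-hi were of passes 2, 3 and 4. Pooled over the mixes both fractions thus held the same passes, but within a mix they did not. The fit reported here has no block by pass. An effect of pass would remain in its spread, and could also shift the change within a mix and the difference between mixes. What a pass stands for is not given in the titles. With the replicate block 3239 genes passed, 1456 higher and 1783 lower, with 1467 for MCC+GP, 1260 for MCC and 0 for the difference between mixes (423 at an unadjusted p under 0.05, edgeR). Cd69, Nr4a1, Egr3 and Fos were called with it.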

Other observations

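Of 336 tested genes named Zfp, a large class of DNA-binding proteins, 113 were lower in CD69-hi than in CD69-lo at 1 h (33.6%) and 9 higher, against 19.7% of all genes and 31.1% of those from 10 to 100 CPM called lower, with a median log2 fold change of -0.45, and 86 were lower and 11 higher with TMM factors among the 12 libraries. Of 51 zinc finger genes of the SCAN and BTB classes 19 were lower and 3 higher. The Gimap genes, GTPases of lymphocytes that support the survival of resting T cells, were lower in 7 of 9 cases, with a median of -0.73, also with the factors among the 12 libraries. Among 114 immunoglobulin V segments 15 were higher and 1 lower, and of 80 cytosolic ribosomal protein genes 1 was higher, or 8 with the factors among the 12 libraries. These families were chosen after their values were seen.

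The share of genes called depended on their level. Genes lower in CD69-hi made up 3.13% of genes up to 1 CPM, 9.33% of those from 1 to 10 CPM, 31.1% of those from 10 to 100 CPM and 39.9% of those above 100 CPM. For genes higher in CD69-hi the shares were 6.01%, 8.57%, 8.63% and 9.69% at these levels.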
